A study of Mus musculus with 12 samples.

Results

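Beta chains of the T cell receptor that used TRBV12-1, TRBV12-2, TRBV15, TRBV16 or TRBV26 and were recorded as working were taken from the tumour T cells of BALB/c mice. A chain was counted when its assembled contig lay in a called cell, was marked productive and carried 1 of these 5 V genes, and each V gene with its CDR3 nucleotide sequence was counted once per library. The rule gave 141 rearrangements in 147 cells, out of 10174 productive beta chain (TRB) rearrangements of 22 TRBV genes. They are called the listed rearrangements here, and the 10033 of the 17 other TRBV genes are the comparison.

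CD45+ immune cells, that is, leukocytes, came from mammary tumours, and the receptor libraries were enriched for alpha (TRA) and beta chains. The groups are treated and untreated, where the labels name cyclophosphamide, an alkylating drug, and pexidartinib, which inhibits the CSF1 receptor, given over a 3-week course. By label CTX, CTX2 and Combined were treated, and through expression libraries of the same number CSF1R was treated and PBS1 untreated, while PBS2 is labelled treated and its paired expression library untreated. These names are tags of the deposited table that the labels do not define, the labels tie no library to a mouse, and the age of the animals and any genotype beyond the strain are not given in the sources used here.

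T cells that carry a receptor of strong self-reactivity are deleted in the thymus. Superantigens encoded by endogenous mouse mammary tumour proviruses bind the side of the beta chain that its V gene encodes, together with class II molecules, and so delete thymocytes by V gene with little regard to the CDR3. In BALB/c mice the 5 listed genes, known in older naming as V beta 5, 12, 11 and 3, are targets of such deletion. Deletion is known to be incomplete, and the cells described here are those in which such a chain was recorded as productive. Whether each cell truly carried it was not tested.

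The 6 libraries held 245 to 7629 called cells and 6807 to 121305 molecules counted by unique molecular identifier (UMI), of which 2671 to 84942 lay on productive TRB contigs. Of 11468 cell barcodes, 50 occurred in 2 or more libraries, and 1 listed rearrangement lay in a cell with such a barcode. CTX2 and Combined carry numbers that start with JR, and the other 4 plain numbers. The cells were not checked against marker genes, because expression matrices were not used here.

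All 5 genes lie on chromosome 6 in RefSeq's annotation of GRCm38.p6, the assembly also called mm10. TRBV12-1 lies at 41113567 to 41114067 and TRBV12-2 at 41118864 to 41119364. TRBV15 lies at 41141211 to 41141658, TRBV16 at 41151791 to 41152230 and TRBV26 at 41227525 to 41227913. These segments supply the first bases of the CDR3, the loop that contacts antigen. The first 16 bases of the CDR3 that most often began TRBV12-1 and TRBV12-2 chains were the same, so the CDR3 start does not separate these 2 genes. The rest of their V sequences was not compared here, and the reference strain is not BALB/c. The split between them was taken as deposited and not checked.

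The best supported chain of each gene is shown to make the joints visible. Lower case marks the V start and the J end, as far as at least 25% of the productive rearrangements of that V or J gene shared them, and capitals mark the bases between, where the segments were joined. Sequences run 5′ to 3′ over the CDR3 and come from the deposited table.
TRBV12-1 with TRBJ2-7, CSF1R: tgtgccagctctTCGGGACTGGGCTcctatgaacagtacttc
TRBV12-2 with TRBJ2-7, PBS1: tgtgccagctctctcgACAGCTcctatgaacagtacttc
TRBV15 with TRBJ2-7, CTX2: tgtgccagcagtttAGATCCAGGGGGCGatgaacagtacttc
TRBV16 with TRBJ1-2, CTX2: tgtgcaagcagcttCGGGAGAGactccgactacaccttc
TRBV26 with TRBJ2-5, Combined: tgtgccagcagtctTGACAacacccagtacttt
These chains rested on 33, 46, 59, 50 and 31 UMIs, each in a single cell. Each carries its own joint, and all 141 listed CDR3 amino acid sequences were distinct.

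TRBV16 was the most frequent of the 5 genes. It gave 71 of the 141 rearrangements, TRBV15 gave 23, TRBV12-1 and TRBV26 gave 17 each and TRBV12-2 gave 13. TRBV16 alone was found in all 6 libraries, with 3 rearrangements in PBS1, 6 in PBS2, 6 in CSF1R, 7 in CTX, 7 in CTX2 and 42 in Combined. TRBV15 was found in 5 libraries, 13 of its 23 rearrangements being in Combined, and PBS2 had none. TRBV12-1 was missing from PBS1, TRBV12-2 from CSF1R and CTX, and TRBV26 from PBS1 and CTX. A count of 0 allows a share of up to 2.13% of the 141 rearrangements of PBS1, 0.746% in PBS2, 0.341% in CSF1R and 0.759% in CTX, so absence from these libraries could not be told from rarity at this depth.

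The share of listed genes was 6.38% in PBS1 (9 of 141, exact 95% interval 2.96 to 11.8), 2.99% in PBS2 (12 of 402, 1.55 to 5.16), 1.25% in CSF1R (11 of 879, 0.626 to 2.23), 3.54% in CTX (14 of 395, 1.95 to 5.88), 3.11% in CTX2 (16 of 514, 1.79 to 5.01) and 1.01% in Combined (79 of 7843, 0.798 to 1.25). PBS1 was highest, on the fewest rearrangements, and CSF1R and Combined, the 2 libraries with the most rearrangements, were lowest. The intervals are Clopper-Pearson and cover counting error only. The treated libraries averaged 2.23% ± 1.29 (SD, n = 4), which is -4.15 percentage points from the untreated PBS1 (exact permutation over 4 libraries and 1, two-sided p = 0.2). No p below 0.2 was possible with 4 libraries against 1, and with PBS2 counted as untreated the difference was -2.46 points (exact permutation p = 0.267, smallest possible 0.0667). Within the libraries with plain numbers the treated mean was 2.40% (n = 2) against 6.38%, and the JR libraries were treated only.

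**Figure D1:**
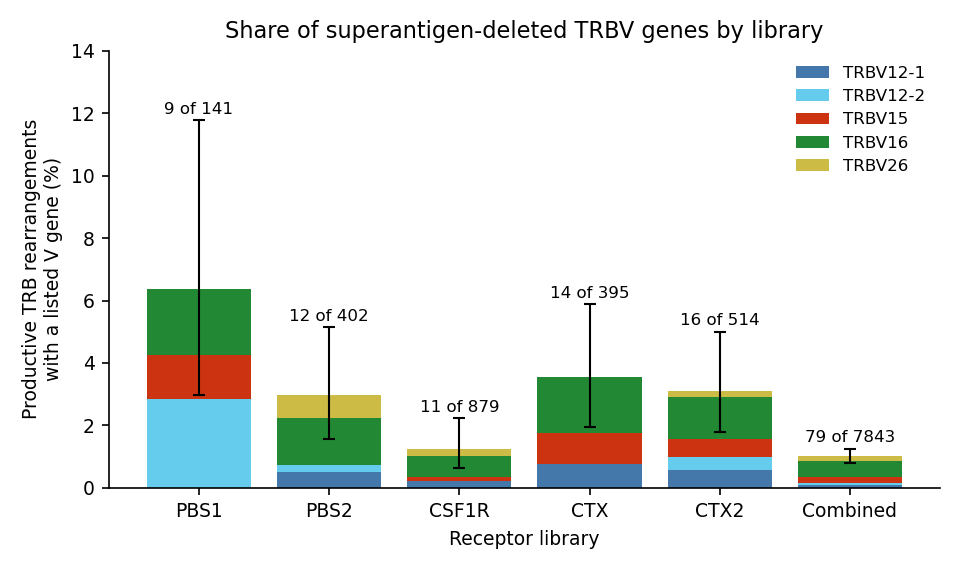
Share of productive TRB rearrangements (%) that used a listed V gene in each of the 6 receptor libraries, coloured by gene, with exact 95% intervals of the total as bars and the counts above. PBS1 is highest at 6.38% on 141 rearrangements, and Combined lowest at 1.01% on 7843.

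The contigs of listed chains carried 1 to 59 UMIs with a median of 10, and other TRBV genes 1 to 194 with a median of 9. Chains resting on a single UMI were 5 of 141 (3.55%) among listed rearrangements and 359 of 10033 (3.58%) among others. In TRBV23, a gene outside the list chosen after its values were seen, 9 of 22 rearrangements rested on 1 UMI and the median was 2.

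By library, the median of listed and of other rearrangements was 12 and 9.5 UMIs in PBS1, 8.5 and 6 in PBS2, 7 and 5 in CSF1R, 8.5 and 8 in CTX, 14 and 11 in CTX2, and 10 and 9 in Combined. The listed median was the higher one in 6 of 6 libraries, by 0.32 ± 0.17 on the log2 scale (SD, n = 6, two-sided exact sign-flip permutation test over libraries, p = 0.0313, the smallest possible). Adjusted over the 9 measures tested by Benjamini-Hochberg the exact permutation p was 0.281, so the difference did not pass. With 6 libraries 1 measure alone could not pass this adjustment even at the smallest p, so the adjusted value decides nothing. High-confidence calls were 134 of 141 among listed and 9700 of 10033 among other rearrangements, a mean difference of -1.79 percentage points ± 4.74 (SD, n = 6, exact permutation p = 0.406, adjusted 0.522).

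Among the 5 genes the median UMI count ran from 6 to 17, with no test of the differences between genes. TRBV15 had 4 to 59 with a median of 17, the highest of the 22 TRBV genes over all libraries pooled, and no chain of 1 UMI. By library its median was 7.5 in PBS1, 16 in CSF1R, 13.5 in CTX, 19 in CTX2 and 18 in Combined. It was the highest of all genes in Combined alone, while TRBV17 had 41 in PBS1 and 41.5 in CTX2, TRBV16 had 24 in CTX and TRBV12-1 had 20 in CSF1R. TRBV16 had 1 to 50 with a median of 11, TRBV12-2 1 to 46 with a median of 8, TRBV12-1 1 to 33 with a median of 7 and TRBV26 1 to 31 with a median of 6. The ranges of all 5 genes overlapped. In Combined, where most TRBV15 chains were found, TRBV15 had 8 to 42 UMIs.

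**Figure D2:**
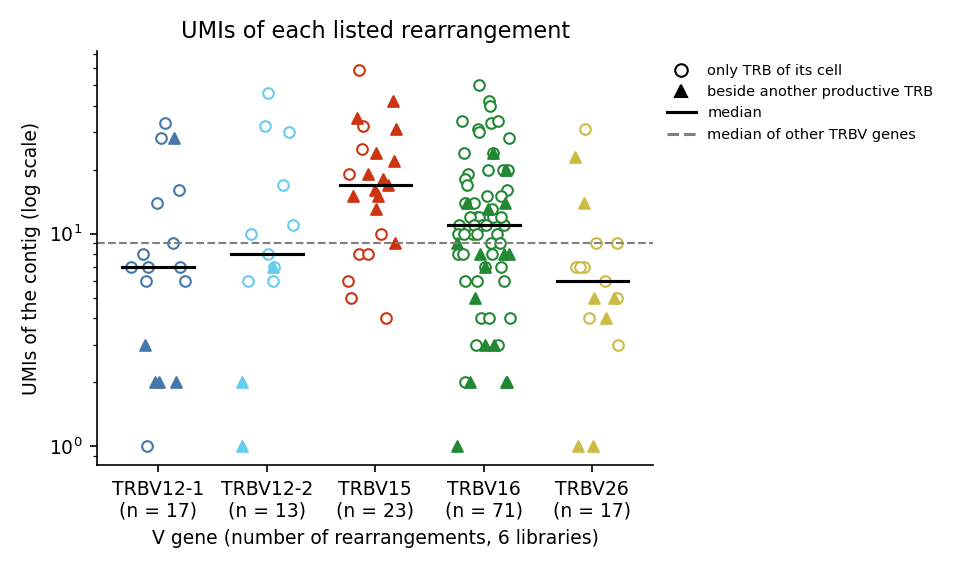
UMIs of each of the 141 listed rearrangements (log axis) by V gene over the 6 libraries, as open circles where the chain was the only productive TRB of its cell and as filled triangles where another was present. Black bars are medians and the dashed line is the median of 9 UMIs of other TRBV genes; TRBV15 has the highest median, 17.

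A second productive beta chain in the same cell was frequent beside listed chains. Developing T cells usually silence the second beta locus once a working chain is made, a process known as allelic exclusion, and cells that escape it carry 2 chains. A droplet that holds 2 cells, or free RNA, can give the same record. Another productive TRB was found beside 45 of 141 listed rearrangements (31.9%) and beside 1576 of 10033 others (15.7%). None of the 45 second chains used a listed gene itself.

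The share of listed rearrangements beside another TRB was 0% in PBS1 (0 of 9, exact 95% interval 0 to 33.6), 41.7% in PBS2 (5 of 12, 15.2 to 72.3), 18.2% in CSF1R (2 of 11, 2.28 to 51.8), 7.14% in CTX (1 of 14, 0.181 to 33.9), 25.0% in CTX2 (4 of 16, 7.27 to 52.4) and 41.8% in Combined (33 of 79, 30.8 to 53.4). The other TRBV genes were at 11.4%, 12.3%, 7.95%, 7.87%, 11.0% and 17.5% in the same order of libraries. Listed chains were higher in 4 of 6 libraries, and in Combined their interval lay above that of the other genes (16.7 to 18.4). In PBS2 the intervals overlapped (9.22 to 16.0 for the other genes), as they did in the remaining 4 libraries. These intervals treat the cells of 1 library as independent and cover counting error only. The mean difference was 11.0 percentage points ± 15.2 (SD, n = 6, two-sided exact sign-flip permutation p = 0.1875, adjusted 0.338 over 9 measures), which did not pass. It was 6.87 points over the 4 libraries with plain numbers, 19.1 over the 2 JR libraries and 7.27 without PBS2.

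**Figure D3:**
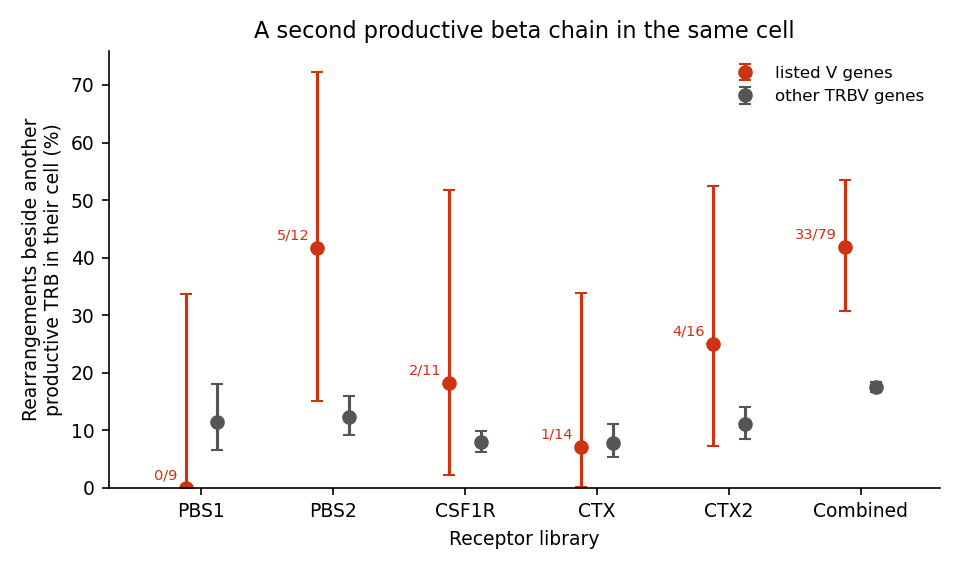
Share of rearrangements (%) whose cell held another productive TRB, for listed V genes (red, counts beside the points) and other TRBV genes (grey) in the 6 libraries, with exact 95% intervals. Listed genes are higher in 4 of 6 libraries, at 41.8% against 17.5% in Combined and 0% against 11.4% in PBS1.

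Among the listed genes TRBV15 had the highest share in Combined, with 11 of the 33 cases, where TRBV16 gave 13. Named after its values were seen, it had another productive TRB in 11 of 13 cells there (84.6%, exact 95% interval 54.6 to 98.1). TRBV16 was at 31.0% in that library (13 of 42, 17.6 to 47.1), TRBV12-1 at 4 of 7, TRBV12-2 at 2 of 6 and TRBV26 at 3 of 11. The 16 other TRBV genes with 10 or more rearrangements in Combined ran from 13.7% for TRBV13-3 to 30.3% for TRBV30, apart from TRBV23 at 88.9%. In the other libraries TRBV15 had another TRB in 0 of 2 cells in PBS1, 1 of 1 in CSF1R, 0 of 4 in CTX and 1 of 3 in CTX2. Without TRBV15 the listed genes were at 33.3% in Combined (22 of 66, 22.2 to 46.0), and the mean difference over libraries was 8.34 points (exact permutation p = 0.156, n = 6).

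**Figure D4:**
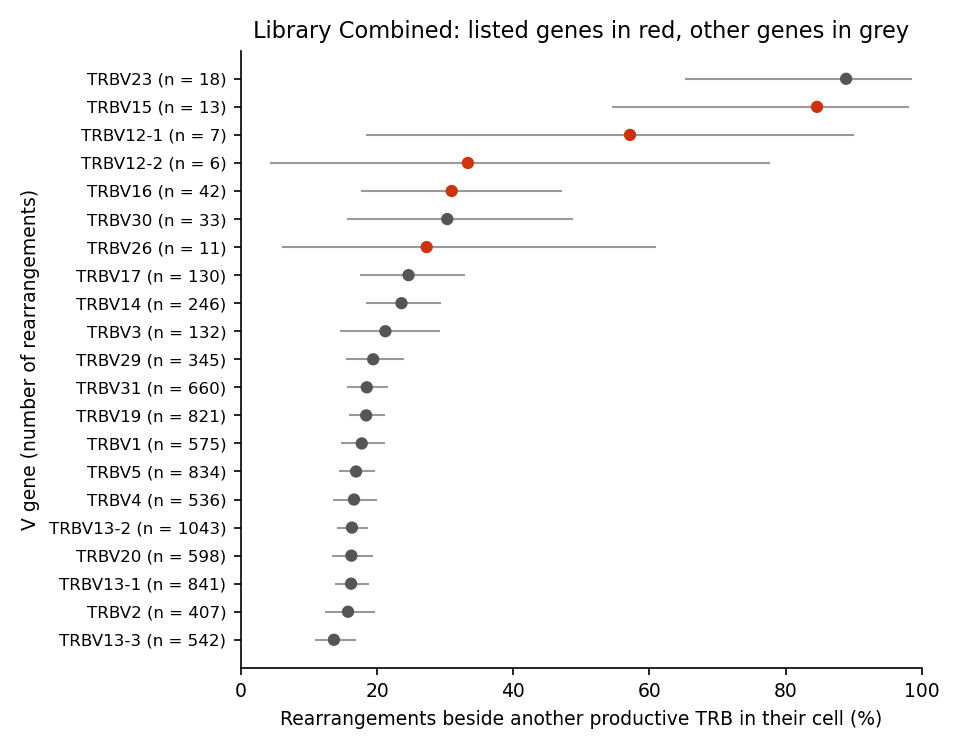
Share of rearrangements (%) beside another productive TRB in library Combined for each TRBV gene with at least 5 rearrangements, with exact 95% intervals; listed genes are red and others grey. TRBV15 at 84.6% and TRBV23 at 88.9% have the highest shares, and TRBV13-3 is lowest at 13.7%.

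Where a cell held 2 beta chains, TRBV15 was the one with more UMIs and TRBV23 mostly the one with fewer. TRBV15 had the more UMIs in 13 of 13 cells with 2 chains, and TRBV23 in 2 of 20. Equal UMI counts were ordered by reads. Listed pairs held no such ties, but the counts given here and below for other genes can include them. In the 11 Combined cells TRBV15 carried 9 to 42 UMIs (median 18) and the other chain 3 to 16 (median 6), a ratio of 1.5 to 8.75 (median 2.8). Both chains were high-confidence calls in 9 of these 11 cells. TRBV17, another gene with a high median of 16 UMIs, had the more UMIs in 82.5% of its 40 cases, and TRBV2, with a median of 4, in 19.4% of its 72. TRBV17 and TRBV2 were chosen after their values were seen, and the part of the usual UMI count of a V gene in the TRBV15 result was not tested.

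The second chains of these 11 cells used TRBV19 (4 cells), TRBV13-1 (3), TRBV13-2 (2), TRBV5 (1) and TRBV13-3 (1), all frequent genes that are not on the list. The 3 cells with the highest TRBV15 UMIs are shown with both chains, to show how the pairs look. The first had no productive alpha chain and the other 2 had 1 each. Capitals are as above.
TRBV15, 42 UMIs: tgtgccaAGcaagacacccagtacttt
TRBV19 beside it, 15 UMIs: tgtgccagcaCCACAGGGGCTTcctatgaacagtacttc
TRBV15, 35 UMIs: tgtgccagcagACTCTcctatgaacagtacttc
TRBV19 beside it, 4 UMIs: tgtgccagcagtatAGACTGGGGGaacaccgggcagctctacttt
TRBV15, 31 UMIs: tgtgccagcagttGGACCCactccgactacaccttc
TRBV19 beside it, 4 UMIs: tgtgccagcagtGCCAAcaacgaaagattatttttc
In the latter 2 cells the TRBV19 chain was not a high-confidence call.

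For the other listed genes the listed chain was not always the stronger. TRBV16 had the more UMIs in 9 of 17 cells, TRBV26 in 5 of 7, TRBV12-1 in 1 of 5 and TRBV12-2 in 0 of 3. Over all 5 genes the listed chain had the more UMIs in 28 of 45 cells, and without TRBV15 in 15 of 32 (46.9%), beside 48.5% of other genes. Most such cells hold 2 chains of other genes, 1 of them leading, so the latter share lies near an even split by construction. The listed chain was the weaker one in 17 of 141 rearrangements (12.1%), and other genes' chains in 812 of 10033 (8.09%). Over libraries this differed by 1.71 percentage points ± 6.38 (SD, n = 6, exact sign-flip permutation p = 0.531, adjusted 0.598), and the difference turned to -0.0483 with high-confidence contigs alone.

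**Figure D5:**
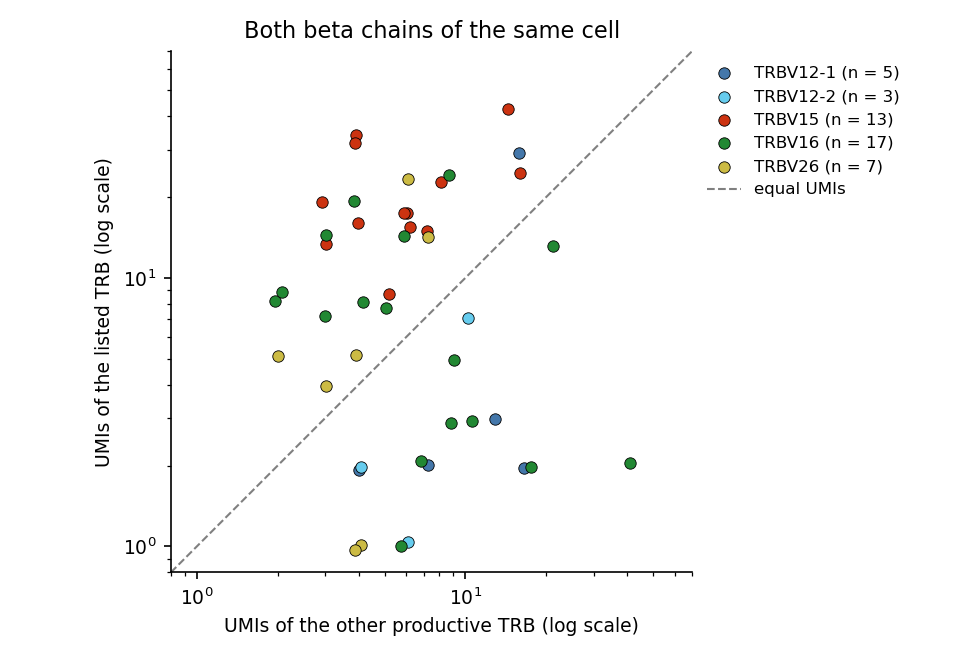
UMIs of the listed TRB against UMIs of the other productive TRB of the same cell (both log axes) for the 45 cells with 2 or more, coloured by V gene, points slightly displaced, with equality dashed. All 13 TRBV15 points lie above the line, and TRBV12-1 and TRBV12-2 lie below it in 7 of 8 cells.

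Cells with a listed chain beside another TRB seldom held 2 alpha chains. At least 2 productive TRA were found in 3 of these 45 cells (6.67%), and in 43.3% of the 1576 other rearrangements beside another TRB. In Combined the shares were 9.09% (3 of 33) and 46.4% (630 of 1359). The listed share was 0% in PBS2, CSF1R, CTX and CTX2, on 5, 2, 1 and 4 rearrangements, where the others were at 22.9%, 23.2%, 36.7% and 23.6%. The listed share was lower in 5 of 5 libraries, the mean of listed minus other being -28.7 points ± 7.52 (SD, n = 5, two-sided exact sign-flip permutation p = 0.0625, the smallest possible), so this design could not pass 0.05, and the comparison was chosen after its values were seen. It was -14.7 points with high-confidence contigs alone (exact permutation p = 0.125). CTX dropped out of that value, because its only listed case was not a high-confidence call. With contigs of 2 or more UMIs the difference was -16.6 points.

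In Combined 0 of 11 TRBV15 cells with 2 beta chains held 2 alpha chains and 4 held none. Of all 679 cells there with 2 or more TRB, 308 (45.4%) held 2 or more TRA and 82 (12.1%) none. The 679 include these 11 and the cells of the other listed genes. Of the 6509 cells with 1 TRB, 11.0% held 2 or more TRA. The TRB UMIs of the cell had a median of 24 in the 11 TRBV15 cells, 18 in the 679 and 10 in cells with 1 TRB. Whether droplets with 2 cells account for any of these second chains was not tested. With cells of at most 1 TRA alone, the difference in second beta chains between listed and other genes was 14.4 points (exact permutation p = 0.125, adjusted 0.281, n = 6).

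J gene use of the listed chains was led by TRBJ2-7 (26 of 141), TRBJ2-5 (22) and TRBJ1-2 (19). J segments supply the end of the CDR3. TRBJ1-2 made up 13.5% of listed and 5.49% of other rearrangements, and was higher in 6 of 6 libraries, with 1 listed rearrangement in PBS1, 1 in PBS2, 2 in CSF1R, 2 in CTX, 2 in CTX2 and 11 in Combined. The mean difference was 8.55 percentage points ± 3.26 (SD, n = 6, exact sign-flip permutation p = 0.0313, the smallest possible, adjusted 0.375 over 12 TRBJ genes), which did not pass. At the smallest p 1 gene alone could not pass this adjustment, so the adjusted value decides nothing. Of the 12 TRBJ genes, 8.33% were higher among listed rearrangements in every library, that is, TRBJ1-2 alone. It was used with all 5 genes, in 10 TRBV16, 5 TRBV15, 2 TRBV12-1, 1 TRBV12-2 and 1 TRBV26 rearrangements.

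TRBJ2-7 was at 18.4% of listed and 15.5% of other rearrangements, and TRBJ2-5 was used by 15.6% of listed and by 1201 of 10033 others, each higher in 4 of 6 libraries. The whole TRBJ2 cluster was used by 84 of 141 listed rearrangements. Over libraries it averaged 57.2% ± 8.48 for listed and 62.1% ± 2.89 for other genes, a difference of -4.82 points ± 9.19 (SD, n = 6, exact sign-flip permutation p = 0.281, adjusted 0.422). It was -1.30 without PBS2, whose own difference was -22.4, and turned to 3.02 without cells of 2 or more TRB or 3 or more TRA. TRBV26 used TRBJ2 in 13 of 17 rearrangements, all 11 of Combined among them, and TRBV15 in 12 of 23.

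CDR3 length of the listed chains ran from 8 to 24 amino acids with a median of 14, the median of other chains. The library means averaged 14.3 ± 0.631 for listed and 13.8 ± 0.0401 for other genes, a difference of 0.529 amino acids ± 0.633 (SD, n = 6, exact sign-flip permutation p = 0.156, adjusted 0.338), higher in 5 of 6 libraries. By gene TRBV16 was longest at 14.5 ± 1.87 (SD, n = 71) and TRBV26 shortest at 12.4 ± 2.18 (SD, n = 17), with TRBV12-1 at 14.1, TRBV12-2 at 13.8 and TRBV15 at 13.3.

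The difference in length was smaller without 4 listed CDR3s that had an odd start. In 4 listed rearrangements (2.84%) and 92 others (0.917%) fewer than 6 of the first 12 bases matched the usual start of the V gene. These 4 are shown because their first bases differ from those of the chains above. In them capitals mark only bases outside the shared V start and J end, which need not be a joint, and their source was not tested. The TRBV16 chain is the one of 24 amino acids, the longest listed CDR3.
TRBV26 with TRBJ1-2, CSF1R, 1 UMI: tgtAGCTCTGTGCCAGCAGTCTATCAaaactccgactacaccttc
TRBV26 with TRBJ2-1, Combined, 1 UMI: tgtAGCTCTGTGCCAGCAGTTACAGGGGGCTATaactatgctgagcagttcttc
TRBV12-2 with TRBJ2-1, Combined, 1 UMI: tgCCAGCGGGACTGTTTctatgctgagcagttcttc
TRBV16 with TRBJ1-3, PBS1, 34 UMIs: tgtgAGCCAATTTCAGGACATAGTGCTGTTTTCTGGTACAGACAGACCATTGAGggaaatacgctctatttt
In both TRBV26 sequences the usual first 12 bases of a TRBV26 CDR3 lay further in, from base 9 of the called CDR3, and 2 bases out of its reading frame. The first 3 of the 4 were not high-confidence calls and each lay beside another productive TRB, while the TRBV16 chain was the only TRB of its cell and a high-confidence call. Without these 4 the length difference was 0.333 amino acids (exact permutation p = 0.313, adjusted 0.675, n = 6), and it was 0.167 with medians in place of means. The 92 others of odd start were kept, so the former value cannot tell what odd starts contribute to the difference.

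A productive alpha chain was found in 105 of 141 cells of listed rearrangements (74.5%) and in 81.5% of others. The listed share was lower in 4 of 6 libraries, the mean of listed minus other being -6.49 percentage points ± 7.76 (SD, n = 6, exact sign-flip permutation p = 0.125, adjusted 0.338) and -2.73 without TRBV15. The share with 2 or more TRA differed by -0.234 points ± 11.8 (SD, n = 6, exact permutation p = 0.969, adjusted 0.969), with a sign that changed between settings. Taking the TRA with the most UMIs, the 105 cells used 40 TRAV and 32 TRAJ genes in 104 distinct chains. No leading alpha chain had the gene pair of NKT or MAIT cells, T cells with an invariant alpha chain. The share of these pairs among other rearrangements was not set beside this, so it cannot be read as particular to listed chains.

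TRAV16N was the alpha V gene found most often, in 10 of 105 (9.52%) beside 4.04% of other rearrangements, higher in 5 of 6 libraries, and 8 of the 10 lay with TRBV16. TRAV14D-3-DV8 followed with 8 (7.62% beside 2.96%), of which 7 lay in Combined and 7 with TRBV16, but was higher in 2 of 6 libraries only. TRAV6-6 had 8 (7.62% beside 5.46%) and was higher in 3 of 6. TRAJ50 was the leading J gene with 9 (8.57% beside 3.89%), then TRAJ56 with 8 (7.62% beside 3.94%), both higher in 5 of 6 libraries, and TRAJ43 and TRAJ48 with 7 each, both higher in 3 of 6. TRBV16 supplied 55 of the 105 listed chains with an alpha chain, and Combined 79 of the 141 listed rearrangements, so counts with either are large to begin with. These are counts of few cells and were not tested, and near-identical copies of TRAV genes make the split between copies uncertain.

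Clones of listed chains were small. A rearrangement found in 2 or more cells was 3 of 141 among listed genes (2.13%) and 202 of 10033 among others (2.01%), so the pooled shares were close. The largest clone of a listed gene held 5 cells, in Combined, where the largest of another gene held 7. In CTX2 the largest clone of another gene held 119 cells, and no listed rearrangement there was found in more than 1 cell. By library, listed clones of 2 or more cells were 1 of 9 in PBS1, 1 of 14 in CTX and 1 of 79 in Combined, and none in PBS2, CSF1R and CTX2. The other genes were at 9.09% in PBS1, 3.85% in PBS2, 1.73% in CSF1R, 11.3% in CTX, 11.6% in CTX2 and 0.760% in Combined. The mean difference was -3.14 percentage points ± 4.81 (SD, n = 6, exact sign-flip permutation p = 0.1875, adjusted 0.338), and -1.44 without CTX2. With each cell counted once it was -19.7 points (exact permutation p = 0.0625, adjusted 0.1875), since the large clones then weigh by their cells.

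The 3 expanded listed chains are shown with the receptor they formed.
TRBV12-1 with TRBJ2-3, Combined, 5 cells: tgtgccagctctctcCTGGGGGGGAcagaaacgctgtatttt
TRBV16 with TRBJ1-1, PBS1, 2 cells: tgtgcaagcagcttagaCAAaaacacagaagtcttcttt
TRBV15 with TRBJ2-7, CTX, 2 cells: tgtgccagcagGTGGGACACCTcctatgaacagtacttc
In Combined, 4 of the 5 TRBV12-1 cells, with 14, 21, 25 and 28 UMIs of this chain, carried the same alpha chain, TRAV9N-2 with TRAJ43 and 1 CDR3. The fifth cell had 1 UMI of it and other alpha chains. The cell with 28 UMIs also held a TRBV1 chain of 16 UMIs and an additional alpha chain, so 3 of the 5 cells carried this receptor alone. Both PBS1 cells, with 7 and 10 UMIs of the TRBV16 chain, shared an alpha chain of TRAV4-3 with TRAJ43 and 1 CDR3. The CTX cells, with 7 and 8 UMIs, had no productive alpha chain.

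No listed V gene and CDR3 nucleotide sequence occurred in 2 libraries, and no listed CDR3 amino acid sequence did. Among all 10174 rearrangements, counted per library, 17 V gene and CDR3 nucleotide sequences occurred in 2 or more libraries. Such sharing was rare for all genes, so its absence among 141 listed rearrangements cannot be read as particular to them. Shared amino acid sequences were not counted for other genes.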

How the data were processed

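Receptor contigs of 6 libraries were used. Cell Ranger 3.0.2 and the builds mm10 and GRCm38 are named per the submitters' processing notes. The deposited table gives UMI counts and read counts per contig as whole numbers that are not normalized, with cell, chain, gene and productive calls, which were taken as deposited. Its 11 library names include 5 that matched no label and were not used. All 11575 productive TRB contigs in called cells were marked full-length. Repeat contigs of 1 barcode with the same V gene and CDR3 were merged, and a rearrangement was described by its cell with the most UMIs.

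Listed and other TRBV genes were compared within each library by flipping the sign of the library differences (exact permutation test, two-sided, 6 libraries), adjusted by Benjamini-Hochberg over 9 measures. Cells of a library share their source, and p-values measure the spread between libraries only. The genes named are the 5 listed ones, the 3 leading TRBJ, TRAV and TRAJ genes beside them (4 TRAJ, for a tie), every clone of 2 or more cells, and the chain of each gene with the most UMIs. The rule also took CDR3s found in 2 or more libraries, of which there were none. Members and lists were chosen with earlier results of these data known. All 22 TRBV names matched RefSeq. Alternatives left out contigs, cells or libraries. The software was scipy 1.17.1 for tests, pandas 2.3.3 for tables, matplotlib 3.10.9 for plots and numpy 2.4.6, under Python 3.11.15. The functions were tested on simulated data.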

Additional observations from a re-analysis of the deposited data

Results flagged for a closer look

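In 1 of 24 groups of library values tested for a sample far from the others, PBS2 stood apart: its TRBJ2 share of listed minus that of other rearrangements was -22.4 percentage points, on 12 listed rearrangements. Chance flags about 1 in 20 such groups.

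Barcodes not called as cells held 33 productive contigs of listed genes, of 1869 productive TRB contigs there (1.77%). In called cells the listed genes were 1.39% of distinct rearrangements, a different unit, and the 2 shares were not tested against each other. Of the 33, 26 rested on 1 UMI and 13 repeated a rearrangement found in a called cell of the same library. In CTX2 a TRBV16 chain with TRBJ2-4, with 12 UMIs in its cell, recurred in 6 such barcodes.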

How the results depend on the processing

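Of 172 recomputed values of 12 results, 162 did not change sign and kept their side of the threshold, and none passed 0.05 after adjustment. Those that turned were the weaker-chain difference, -0.0483 with high-confidence contigs alone; the high-confidence difference, 0.133 without the 4 CDR3s of odd start; the TRBJ2 difference, 3.02 without cells of 2 or more TRB or 3 or more TRA; and the share of 2 or more TRA, 2.60 with high-confidence contigs, 3.04 with 2 or more UMIs, 3.96 without those cells and 1.28 with the leading TRB of each cell. Leaving out single libraries, the latter ran from -4.52 to 2.12, being 0.975 without PBS2, 2.12 without CSF1R and 1.13 without Combined. The other ranges without 1 library were 0.28 to 0.36 on the log2 scale for UMIs, 7.27 to 15.4 points for a second TRB and -4.59 to -3.75 for treated minus untreated. The weaker-chain difference was 3.27 without PBS1, 3.39 without PBS2, 1.02 without CSF1R, 0.718 without CTX2 and 0.571 without Combined. The high-confidence difference was -2.71 without PBS2, -0.512 without CSF1R and -0.822 without CTX, and the difference in alpha chains was -4.25 without CSF1R. Counted among the 162, the high-confidence difference vanished to 0 without cells of 2 or more TRB or 3 or more TRA. It was also 0 with the leading TRB of each cell. Alternatives without TRBV15, with at most 1 TRA, without the 4 CDR3s and without TRBV21 and TRBV23 were chosen after seeing the data. The 4 CDR3s were left out on the listed side only. Full-length contigs and libraries with 5 or more listed rearrangements gave the same values, since all qualified. The same held without PBS2 for treated against untreated, which did not use PBS2. It also held without PBS1 for 2 alpha chains beside a second TRB, where PBS1 had no listed case. Many of the 172 values could not have passed 0.05. Without 1 library the smallest possible exact permutation p was 0.0625 or more, and treated against untreated could not go below 0.0667. The design thus fixed part of the count that kept its side of the threshold. No paired analysis was possible because, between treated and untreated libraries, the labels carry no shared replicate numbers; listed and other genes were compared within each library throughout. In 5 of the 6 libraries the listed values rest on 9 to 16 rearrangements.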
